A study of Homo sapiens with 6 samples.

Results

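The nuclear genes of respiratory complexes II to V were followed in THP-1 cells, a single human monocytic leukaemia line kept in RPMI medium with fetal bovine serum. RNA was sequenced from 3 samples labelled as without exposure (called untreated) and from 3 given 1 µM monensin for 16 h, a polyether ionophore that exchanges sodium ions for protons across membranes. The label of the untreated samples names no vehicle, so an effect of a vehicle and of monensin cannot be told apart. Genes were taken by symbol: those starting with SDH, UQCR, UQCC or ATP5, those with COX or COA followed by a digit, and CYC1 and CYCS. Pseudogene and antisense names were dropped. Of 185 symbols that fit the names, 110 were dropped and 75 of the 58395 genes in the count tables were kept. All 75 are protein coding in GENCODE 29.

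Respiratory complexes II to V carry electrons from succinate and ubiquinol to oxygen and turn the resulting proton gradient into ATP. Complex II (succinate dehydrogenase) oxidises succinate and passes electrons to ubiquinone. Complex III hands them to cytochrome c, complex IV (cytochrome c oxidase) passes them to oxygen, and complex V (ATP synthase) lets protons back through a ring of c subunits to make ATP. Complex II is encoded by nuclear genes alone, whereas complexes III, IV and V each also hold subunits encoded by mitochondrial DNA, so that their assembly joins products of both genomes.

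Gene counts came to between 22975888 and 25710513 per library, of which these genes held 0.937% to 0.984% in untreated and 0.878% to 0.923% in monensin libraries. Reads assigned to no gene made up 19.1% to 19.8% of tallied alignments in the untreated and 21.2% to 22.0% in the monensin libraries. All 8 monocytic markers checked (among them LYZ, CD33 and SPI1) were detected, with a summed level of 1527 to 1599 CPM (counts per 1000000 gene counts of a library, with the library size adjusted by TMM) in untreated and 1422 to 1523 CPM in monensin libraries. Within this sum the markers moved in opposite directions: LYZ (-1.44) and CD33 (-0.40) fell, FCER1G (1.61), CD68 (1.10), TYROBP (0.64) and SPI1 (0.34) rose, and ITGAM and CSF1R were not called (log2 fold changes). Their part in the results was not tested. Of the markers of other cell types reported here, CD3E, HBB and EPCAM were at 0 in all 6 libraries, and CD3D and MS4A1 had 1 count each over all libraries. COL1A1 was low, at 0.652 CPM in untreated and 1.16 CPM in monensin libraries on average, and was called as raised, a call lost with DESeq2 (adjusted p = 0.0674), after a correction for GC content and length (adjusted p = 0.0543), and when untreated library 2 or monensin library 2 was left out (adjusted p of 0.0891 and 0.0614). Its part in the results was not tested. CPM are shares of a library, and in bulk RNA fewer cells of a kind and less RNA per cell cannot be told apart.

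Untreated library 1 was the highest of its group for 47 of the 67 tested genes (70.2%, against 36.0% of all tested genes), and monensin library 3 was the highest of its group for 51 (76.1%, against 40.1%). The labels do not state that replicates of a group are separate cultures, so p-values measure the spread between these libraries, which may be technical.

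Short reference promoters are shown first, for genes that the results turn on. They are 300 bases long, from 250 before to 50 after the gene's start in RefSeq (GRCh38.p14), written 5′ to 3′ on the gene's strand. Capitals mark the letters of 3 searched motifs on either strand: the NRF1 core GCATGCGC, the ETS core CCGGAAG, which is the core that GABP reads, and the YY1 core AAGATGGCG. NRF1, GABP and YY1 are transcription factors known to bind promoters of respiratory genes. ATP5PF is shown because its promoter holds all 3 motifs, COX5B because it holds NRF1 and ETS letters, and CYCS as the carrier between complexes III and IV. COX4I1 and ATP5MC2 are shown as subunits that rose, and ATP5MC1 as a c-ring gene that fell and whose window holds none of the 3.
ATP5PF, chr21:25735005-25735304, minus strand: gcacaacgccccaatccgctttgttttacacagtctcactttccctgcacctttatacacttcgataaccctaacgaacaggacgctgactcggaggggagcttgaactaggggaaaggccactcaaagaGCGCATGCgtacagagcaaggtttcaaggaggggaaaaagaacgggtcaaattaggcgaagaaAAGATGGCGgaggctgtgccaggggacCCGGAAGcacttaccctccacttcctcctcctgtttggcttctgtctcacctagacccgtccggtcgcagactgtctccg
COX5B, chr2:97645812-97646111, plus strand: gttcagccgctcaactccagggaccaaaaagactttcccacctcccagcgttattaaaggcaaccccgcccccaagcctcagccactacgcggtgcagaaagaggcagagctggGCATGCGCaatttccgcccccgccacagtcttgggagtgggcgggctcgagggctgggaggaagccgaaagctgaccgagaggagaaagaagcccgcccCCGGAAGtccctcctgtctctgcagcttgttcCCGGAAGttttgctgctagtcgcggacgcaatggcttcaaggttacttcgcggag
CYCS, chr7:25125211-25125510, minus strand: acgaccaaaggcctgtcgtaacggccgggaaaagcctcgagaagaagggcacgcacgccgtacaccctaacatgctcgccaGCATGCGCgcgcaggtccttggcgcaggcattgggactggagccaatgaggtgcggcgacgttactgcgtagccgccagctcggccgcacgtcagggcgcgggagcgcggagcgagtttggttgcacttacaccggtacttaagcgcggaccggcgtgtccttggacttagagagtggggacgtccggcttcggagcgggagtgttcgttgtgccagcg
COX4I1, chr16:85799445-85799744, plus strand: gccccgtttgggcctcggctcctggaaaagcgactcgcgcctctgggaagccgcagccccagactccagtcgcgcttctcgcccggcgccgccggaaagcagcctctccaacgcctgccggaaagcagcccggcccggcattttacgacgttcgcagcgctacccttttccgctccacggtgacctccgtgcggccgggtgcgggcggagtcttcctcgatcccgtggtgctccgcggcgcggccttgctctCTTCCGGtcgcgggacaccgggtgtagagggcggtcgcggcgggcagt
ATP5MC2, chr12:53676034-53676333, minus strand: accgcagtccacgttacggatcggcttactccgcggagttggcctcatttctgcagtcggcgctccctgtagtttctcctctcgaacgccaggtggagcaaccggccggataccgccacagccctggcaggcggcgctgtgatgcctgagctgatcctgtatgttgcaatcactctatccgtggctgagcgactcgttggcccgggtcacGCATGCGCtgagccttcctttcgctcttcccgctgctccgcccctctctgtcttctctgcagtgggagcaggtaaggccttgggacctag
ATP5MC1, chr17:48892537-48892836, plus strand: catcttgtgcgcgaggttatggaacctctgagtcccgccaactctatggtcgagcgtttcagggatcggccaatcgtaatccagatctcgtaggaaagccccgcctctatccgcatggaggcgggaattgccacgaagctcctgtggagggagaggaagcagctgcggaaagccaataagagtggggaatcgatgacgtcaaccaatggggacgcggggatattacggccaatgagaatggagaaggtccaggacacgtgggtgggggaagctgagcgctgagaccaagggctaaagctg

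RefSeq windows were matched for 59 of the 75 genes, 55 of them among the tested genes. The NRF1 core was found in 13 of these 55 promoters (23.6%), against 3.05% of all 35116 promoters of the same length. The ETS core was found in 23 (41.8%, against 10.3%) and the YY1 core in 5 (9.09%, against 1.75%). At least 1 of the 3 was in 29 of 55 (52.7%, against 14% of all). By outcome, 16 of 27 promoters of lowered genes (59.3%), 3 of 7 of raised genes (42.9%) and 10 of 21 of genes not called (47.6%) held at least 1. These shares are descriptions of the letters in the windows. The 35116 promoters were not limited to tested genes, whereas the 55 are 1 window per tested gene. A share over the promoters of all tested genes was not computed.

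Most of the changes after monensin were small and downward, and they were uneven within each complex. Of the 67 genes with enough counts to test, 34 fell and 7 rose, and 26 were not called. A gene was called at an adjusted p under 0.05 by edgeR's quasi-likelihood test with Benjamini-Hochberg adjustment over all 16542 tested genes. Among all tested genes 33.7% were lowered and 34.1% were raised, against 50.7% and 10.4% of these 67. Genes called in either direction made up 61.2% of the 67 and 67.8% of all tested genes. The median log2 fold change was -0.15, with a range from -0.83 to 0.70, beside a median of 0.02 over all tested genes.

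None of the 67 changed at least 2-fold, whereas 13.2% of all tested genes were called with a change of that size. The groups did not overlap for 42 of the 67 genes (62.7%), all 3 monensin libraries lying lower for 34 and higher for 8. Over all tested genes the groups did not overlap for 71.1%. None of the 75 was in the authors' deposited table of 2410 regulated genes, whose absolute log2 fold changes all exceed 1. With library sizes scaled by total counts alone the split was 29 lowered and 17 raised. After a GC and length correction, in which trends over these gene properties were taken out of the counts, it was 33 lowered and 17 raised. Without monensin library 3 it was 37 lowered and 7 raised, and without untreated library 1 it was 34 lowered and 8 raised.

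**Figure D1:**
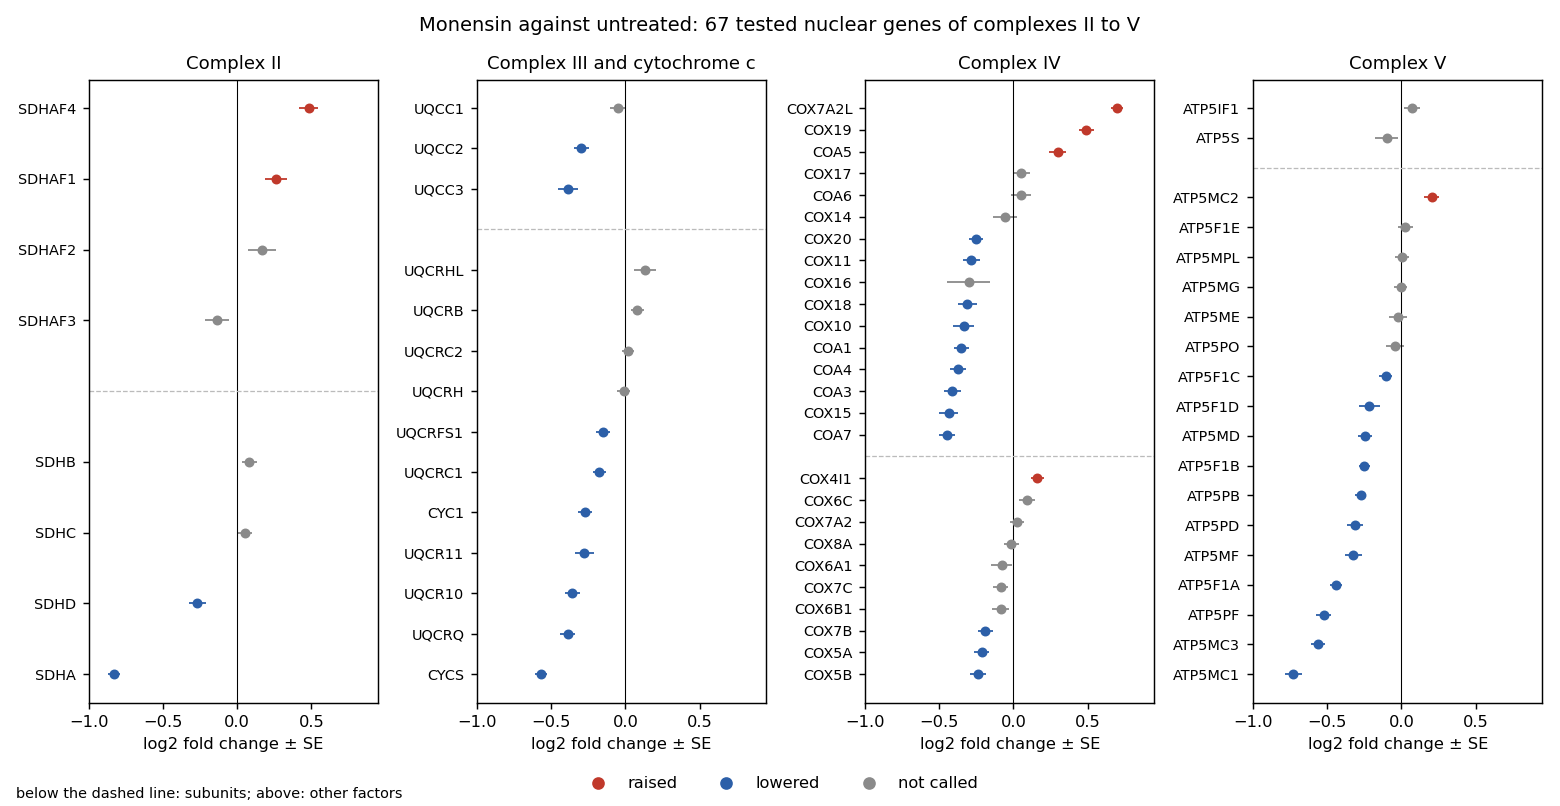
Log2 fold change (monensin against untreated, horizontal axis) with its standard error for each of the 67 tested genes, in panels for complex II, complex III with cytochrome c, complex IV and complex V, with subunits below and other factors above the dashed line. Red points are raised, blue points lowered and grey points not called; SDHA at -0.83 and COX7A2L at 0.70 are the extremes.

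In complex II, the flavoprotein subunit SDHA fell by the widest margin of all 67 genes while the iron-sulfur subunit SDHB was not called. SDHA, which holds the FAD that oxidises succinate, was at 271.4, 267.8 and 269.7 CPM in the untreated libraries and at 150.4, 146.2 and 158.4 CPM in the monensin libraries. The groups are far apart, and the spread within each is small. Its mean went from 269.7 ± 1.80 to 151.7 ± 6.21 CPM (SD, n = 3), so that the log2 fold change was -0.83 (SE 0.04, adjusted p = 1.19e-10). SDHA is on chromosome 5 (218241 to 256700, GRCh38). Rows of its pseudogenes held 7.05% as many counts as SDHA itself. How reads were divided between these copies is uncertain.

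SDHB, which passes the electrons on through its iron-sulfur clusters, was at 72.4, 72.5 and 67.2 CPM without and at 72.5, 75.4 and 76.6 CPM with monensin. All 3 monensin libraries lay above the untreated ones, by a margin too small for a call (log2 fold change 0.08, adjusted p = 0.15). Under total counts it was called as raised (adjusted p = 0.00602). The membrane anchors also parted. SDHC, with a log2 fold change of 0.05, was not called (it was called as raised under total counts and after GC and length correction), and SDHD fell by 0.27 (log2, SE 0.06, adjusted p = 0.000519). The call of SDHD was lost after GC and length correction (adjusted p = 0.0987).

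Of the complex II assembly factors, 2 of 4 rose and none fell, with a median of 0.21. Raised genes made up 50% of these 4, against 34.1% of all tested genes. SDHAF4, which stabilises SDHA before it joins SDHB, was at 18.1, 17.7 and 16.3 CPM in untreated and at 23.7, 24.8 and 24.3 CPM in monensin libraries. The groups do not overlap, and its log2 fold change was 0.48 (SE 0.06, adjusted p = 6.78e-06). SDHAF1, which helps to insert iron-sulfur clusters into SDHB, rose by 0.26 (SE 0.07, adjusted p = 0.00638), but after GC and length correction the value was -0.011 (adjusted p = 0.886). SDHAF2, which promotes attachment of FAD to SDHA, had a log2 fold change of 0.17 and SDHAF3 one of -0.14. Neither was called, but SDHAF2 was called as raised under total counts, and SDHAF3 as lowered without monensin library 2 (adjusted p = 0.0437). The 4 complex II subunits summed to 492.7 ± 7.91 CPM without and 368.9 ± 7.23 CPM with monensin, a change of -25.1%. SDHA made up most of this fall (269.7 to 151.7 CPM on average), SDHD fell too, and SDHB and SDHC were not called.

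In complex III, 6 of 10 nuclear subunits fell (60%, against 33.7% of all tested genes) and none rose (against 34.1%). The median over the 10 was -0.16 (log2). Under total counts 4 fell and 3 rose (median -0.08), and after GC and length correction 6 fell and 2 rose. The small subunits UQCRQ and UQCR10, which sit in the membrane part of the complex, had the lowest fitted values. UQCRQ was at 102.1, 100.1 and 97.7 CPM in untreated and at 72.9, 74.8 and 81.5 CPM in monensin libraries, with no overlap (log2 fold change -0.39, SE 0.05). UQCR10 was at 100.7, 94.8 and 89.8 CPM in untreated and at 73.6, 74.2 and 75.0 CPM in monensin libraries (log2 fold change -0.36, SE 0.05). All 3 monensin libraries of UQCR10 lie close together, below every untreated library. UQCR11, another small subunit, fell by 0.28.

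The electron carriers of complex III fell too. CYC1, cytochrome c1, fell by 0.27 (SE 0.05, adjusted p = 0.000129), and by 0.55 after GC and length correction, beyond UQCRQ (-0.47) and UQCR10 (-0.36) in that fit. UQCRFS1, the Rieske iron-sulfur protein, fell by 0.15 (adjusted p = 0.00983). The core protein UQCRC1 fell by 0.17. Calls of UQCRC1 and UQCRFS1 were lost under total counts, and that of UQCRFS1 after GC and length correction. The other core protein UQCRC2, with a log2 fold change of 0.02, UQCRB with 0.08, and UQCRH with -0.01 were not called, although UQCRC2 and UQCRB were called as raised under total counts and after GC and length correction. UQCRHL, an intronless copy of UQCRH, had a log2 fold change of 0.13 and was not called (called as raised under total counts, adjusted p = 0.0152). UQCRH was called as lowered after GC and length correction (-0.08, adjusted p = 0.0496). Reads of this pair may have been exchanged in mapping.

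Of the complex III assembly factors, UQCC2 (-0.30) and UQCC3 (-0.39) fell and UQCC1 (-0.05, adjusted p = 0.395) was not called. UQCC1 and UQCC2 act on the synthesis of cytochrome b and UQCC3 on its stability. UQCC3 was at 26.3, 23.5 and 22.4 CPM in untreated and at 18.3, 18.4 and 18.6 CPM in monensin libraries, without overlap. CYCS, the soluble cytochrome c that shuttles between complexes III and IV, was at 324.8, 321.8 and 313.5 CPM in untreated and at 213.9, 224.4 and 209.4 CPM in monensin libraries. Every monensin library lay below every untreated one, and the change was -0.57 on the log2 scale (SE 0.04, adjusted p = 6.65e-09), or -32.5%. CYCS lies on chromosome 7 from 25120091 to 25125361, and its promoter above holds an NRF1 core.

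Of the 10 tested complex IV subunits, 3 fell, 1 rose and 6 were not called. That is 30% lowered and 10% raised, against 33.7% and 34.1% of all tested genes. The groups did not overlap for 40% of these subunits, against 71.1% of all tested genes. The median (log2) of the 10 subunits was -0.08, and its sign turned to 0.0039 with total counts and to 0.04 after GC and length correction. The counts turned as well: 2 fell and 3 rose under total counts, and 4 fell and 4 rose after GC and length correction. Without monensin library 3, 5 fell and 1 rose (median -0.12), and without untreated library 1 the median was -0.02. Their summed level was 1842 ± 75.2 CPM without and 1816 ± 103 CPM with monensin, and the groups overlapped. COX5B, COX5A and COX7B fell. COX5B was at 139.8, 134 and 122.2 CPM in untreated and at 105.5, 113.9 and 116.6 CPM in monensin libraries (log2 fold change -0.24, SE 0.05, adjusted p = 0.00126). COX5A went from 209.7 ± 7.58 to 180.7 ± 10.1 CPM (log2 fold change -0.21, SE 0.05). COX7B fell by 0.19, but it was not called under total counts (adjusted p = 0.0704) and after GC and length correction (adjusted p = 0.744).

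The subunit that rose was COX4I1, the general isoform of subunit 4, which is among the first nuclear subunits to join the growing complex. It was at 402.1, 386.5 and 385.1 CPM in untreated and at 419, 428 and 464.4 CPM in monensin libraries. The groups do not overlap, although the highest untreated and the lowest monensin library are close (log2 fold change 0.16, SE 0.04, adjusted p = 0.00465). Among the other general isoforms, COX6A1 had a log2 fold change of -0.08, COX6B1 of -0.09, COX7A2 of 0.02 and COX8A of -0.01, and none was called. COX6C (0.09) and COX7C (-0.09) were not called either. Of these 6, COX6A1 alone was called in no fit. Its pseudogene rows held 12.5% as many counts as COX6A1 itself, so that its level is less certain. COX6B1 and COX7C were lowered without monensin library 3 (adjusted p = 0.00321 and 0.0438), and COX7C was raised after GC and length correction.

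The isoforms of complex IV known from muscle, lung or testis were near or at 0. COX6A2, COX7A1 and COX7B2 had no count in any library, which allows up to 3 counts over all 6 libraries, or 0.0204 CPM. COX4I2, COX6B2 and COX8C had at most 5 counts in any library. They were not tested, nor were the readthrough gene ATP5MF-PTCD1 and ATP5MGL of complex V. Among the genes that were tested, the lowest count in any library was 73, for the assembly factor COX16.

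COX7A2L, which is related in sequence to COX7A2 and joins complexes III and IV into supercomplexes, showed the widest rise of the 67 genes. It was at 103.2, 99.0 and 104.2 CPM in untreated and at 163.7, 168 and 165.4 CPM in monensin libraries. The groups are far apart, and the log2 fold change was 0.70 (SE 0.04, adjusted p = 8.99e-10), or 62.2%. COX7A2 was at 229.3, 213.5 and 214.2 CPM in untreated and at 218.9, 215.2 and 234.5 CPM in monensin libraries, so that its groups overlap. Of the reads of this pair, COX7A2L held 31.8% ± 0.846 in untreated and 42.7% ± 1.24 in monensin libraries (SD, n = 3, reads not scaled for length). COX7A2L lies on chromosome 2 from 42333546 to 42425088 and has no pseudogene row in the tables.

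**Figure D2:**
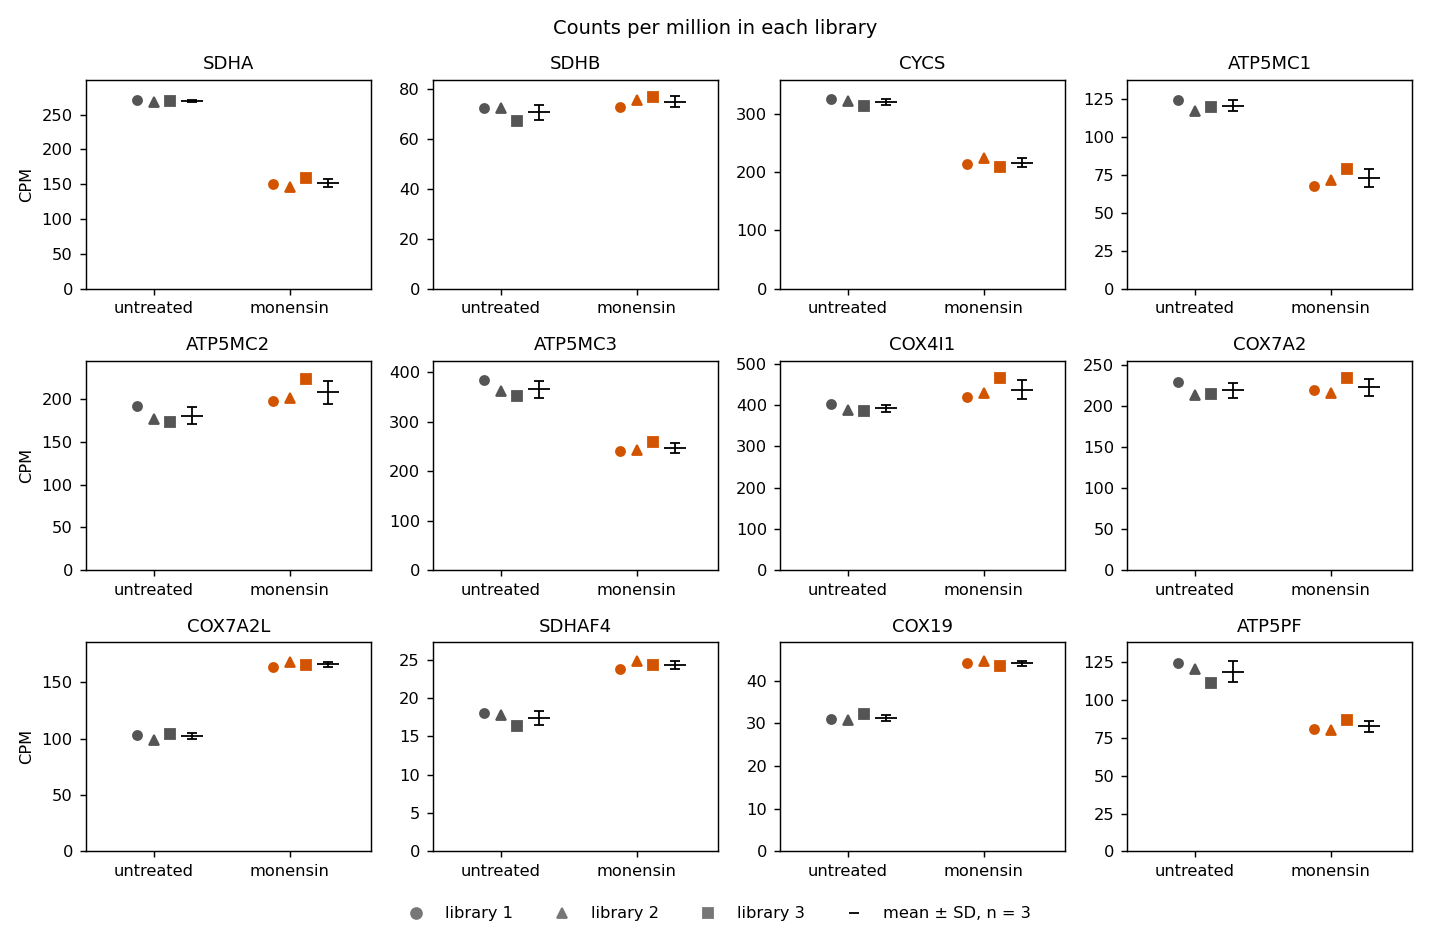
CPM (vertical axis, from 0) in each of the 3 untreated (grey) and 3 monensin (orange) libraries for 12 genes, with circles, triangles and squares for libraries 1, 2 and 3 and a bar for mean ± SD. The monensin points of SDHA, CYCS, ATP5MC1, ATP5MC3 and ATP5PF lie below and those of COX7A2L, SDHAF4 and COX19 above all untreated points, while COX7A2 overlaps.

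Of the complex IV assembly factors, 9 of 15 fell, 2 rose and 4 were not called, with a median log2 fold change of -0.30. That is 60% lowered and 13.3% raised, against 33.7% and 34.1% of all tested genes. Under total counts 9 fell and 3 rose, and after GC and length correction 8 fell and 4 rose. Whether the assembly factors differ from the subunits was not tested. COX10 and COX15, which make the heme A of the enzyme, fell by 0.34 and 0.44. COX15 was at 49.7, 51.3 and 52.3 CPM in untreated and at 41.4, 34.0 and 37.9 CPM in monensin libraries, and all monensin values lay lower. COA3, which acts with COX14 on the synthesis and stability of the mitochondrially encoded subunit 1, was at 35.0, 34.4 and 32.3 CPM in untreated and at 25.98, 25.3 and 25.1 CPM in monensin libraries (log2 fold change -0.41, SE 0.06, and -0.65 after GC and length correction). COX14 was not called (-0.06), but was called as lowered after GC and length correction (-0.24, adjusted p = 0.00881). COA7, a repeat protein of the intermembrane space, went from 87.3 ± 1.91 to 64.1 ± 3.998 CPM (log2 fold change -0.45, SE 0.05, adjusted p = 1.64e-06).

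Genes for handling copper were split. COX19, a twin-cysteine protein of the intermembrane space, rose from 31.4 ± 0.733 to 44.1 ± 0.595 CPM. Its libraries were at 31.0, 30.9 and 32.2 CPM untreated and at 44.3, 44.6 and 43.4 CPM with monensin, far apart (log2 fold change 0.49, SE 0.05, adjusted p = 5.69e-07). COX11, which brings copper to subunit 1, fell by 0.28, and COX17, the copper chaperone, and COA6 were not called (both 0.05). After GC and length correction COX17 and COA6 were called as raised (both 0.17), and COX17 also under total counts (adjusted p = 0.0438). COA5, whose loss causes cytochrome oxidase deficiency, rose by 0.30 (SE 0.06, adjusted p = 0.000343). COX18 and COX20, which act on the mitochondrially encoded subunit 2, fell by 0.31 and 0.25, COA1 by 0.35 and COA4 by 0.37, and COX16 had a log2 fold change of -0.30 that was not called (adjusted p = 0.0727, and 0.0225 without monensin library 3). Calls of COX18 and COX20 were lost after GC and length correction. COX19 shares 21.4% of its exonic bases with ADAP1 on the same strand and COX20 shares 72% with HNRNPU on the other, and COA3 shares 42.5% with WNK4 on the other. Whether counting used the strand is not stated, so the part of HNRNPU and WNK4 in these counts is uncertain. How reads in bases shared on the same strand, as with ADAP1, were counted is uncertain too. Overlaps on the same strand were also annotated for COX15 (25.6%), COX16 (36%), COX8A (34.5%) and SDHAF2 (30.5%). On the other strand they were annotated for UQCC3 (29.2%), ATP5ME (61.6%), UQCC2 (24.1%), ATP5F1E (23.2%), UQCRQ (20.8%) and ATP5S (20.1%). Other overlaps were annotated too and are not all listed.

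In complex V, 11 of 17 tested subunits fell and 1 rose. That is 64.7% lowered and 5.88% raised, against 33.7% and 34.1% of all tested genes. The median log2 fold change of the 17 was -0.25, and the change was not even across the parts of complex V. Under total counts 9 fell and 1 rose (median -0.16), and after GC and length correction 11 fell and 4 rose. The summed level went from 4323 ± 101 to 3583 ± 134 CPM, a change of -17.1%. In the catalytic head and central stalk 4 of 5 fell (80%, against 33.7% of all tested genes), and 2 of 5 under total counts. ATP5F1A, the alpha subunit, went from 852 ± 13.2 to 627.1 ± 23.2 CPM (log2 fold change -0.44, SE 0.04, adjusted p = 6.95e-08), and ATP5F1B, the catalytic beta subunit, fell by 0.25. ATP5F1C fell by 0.11, with a call that was lost in 6 of the alternative fits, and ATP5F1D fell by 0.22, with an untreated and a monensin library that overlap (136.8 and 141.9 CPM). The call of ATP5F1D was lost under total counts and when monensin library 1 or monensin library 2 was left out (adjusted p of 0.0706 and 0.0605). ATP5F1E was not called (0.02), except as raised after GC and length correction (adjusted p = 0.000189).

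The 3 genes of the c ring moved in opposite directions. They encode the same mature protein, which forms the ring that protons turn, and differ in the import sequence that is cut off. ATP5MC1 was at 124.7, 117.5 and 119.8 CPM in untreated and at 67.7, 71.8 and 79.2 CPM in monensin libraries (log2 fold change -0.73, SE 0.06, adjusted p = 1.32e-08). ATP5MC3 was at 383.6, 361.1 and 351 CPM in untreated and at 239.7, 242.7 and 259.2 CPM in monensin libraries (log2 fold change -0.56, SE 0.05, adjusted p = 2.45e-08). For both genes every monensin library lay below every untreated one. ATP5MC2 was at 192.3, 176.5 and 173.9 CPM in untreated and at 198.6, 202.1 and 224.1 CPM in monensin libraries. These groups do not overlap, and ATP5MC2 rose by 0.20 (SE 0.05, adjusted p = 0.00311), staying called and raised in all 14 alternative fits.

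Of all c-ring reads, ATP5MC2 held 27.5%, 26.9% and 27.0% in the untreated and 39.3%, 39.1% and 39.8% in the monensin libraries. The shares of the groups do not overlap, and as ratios within a library they do not depend on how libraries are scaled. ATP5MC1 went from 18.1% ± 0.415 to 13.8% ± 0.366 and ATP5MC3 from 54.8% ± 0.337 to 46.8% ± 0.663 of c-ring reads (SD, n = 3, not scaled for length). The sum of the 3 genes changed by -20.8%, from 666.8 ± 29.7 to 528.4 ± 30.1 CPM. ATP5MC2 lies on chromosome 12 from 53632726 to 53677408, and its pseudogene rows held 7.69% as many counts as the gene itself, so that its level is less certain than those of ATP5MC1 (0.648%) and ATP5MC3 (no pseudogene row). ATP5MC1 lies on chromosome 17 from 48892765 to 48895871 and ATP5MC3 on chromosome 2 from 175176258 to 175184607.

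In the peripheral stalk, which holds the head against rotation, 3 of 4 fell (75%, against 33.7% of all tested genes). ATP5PF, coupling factor 6, was at 124.6, 120.7 and 111.3 CPM in untreated and at 81.2, 80.0 and 86.9 CPM in monensin libraries, a clear separation (log2 fold change -0.52, SE 0.05, adjusted p = 2.85e-07). ATP5PD fell by 0.31 and ATP5PB by 0.28, and ATP5PO was not called (-0.04). ATP5PF shares 23.1% of its exonic bases with JAM2 and GABPA on the other strand. Of the membrane subunits, ATP5MF fell by 0.33 and ATP5MD by 0.25, and ATP5ME (-0.03), ATP5MG (-0.01) and ATP5MPL (0.0017) were not called. After GC and length correction, ATP5MG (0.21) and ATP5MPL (0.10) were called as raised and ATP5ME (-0.21) as lowered. The inhibitor ATP5IF1, which blocks ATP hydrolysis, went from 68.4 ± 3.37 to 71.9 ± 3.65 CPM with overlapping groups (log2 fold change 0.07, adjusted p = 0.249), and was called as raised under total counts (adjusted p = 0.0149). ATP5S, the coupling factor B gene, was not called (-0.10). It was called as lowered without monensin library 2 (-0.19, adjusted p = 0.0452), and its value after GC and length correction was 0.15.

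The mitochondrially encoded partners of these subunits were at far lower levels with monensin. Cytochrome b of complex III, MT-CYB, went from 3254 ± 116 to 152.3 ± 15.6 CPM, a change of -95.3%, while the nuclear subunits of that complex changed by -7.39% (1880 ± 62.3 to 1741 ± 67.7 CPM). In complex IV the 3 mitochondrial genes together went from 15593 ± 572 to 463.8 ± 48.8 CPM, or -97.0%, beside -1.43% for the nuclear subunits. In complex V the sum of MT-ATP6 and MT-ATP8 changed by -95.3%, from 3961 ± 128 to 186.9 ± 16.4 CPM. Each of these 6 mitochondrial genes fell, with log2 fold changes from -4.38 to -5.29. Leaving all genes of the mitochondrial chromosome out before normalization left the counts at 34 lowered and 7 raised nuclear genes.

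**Figure D3:**
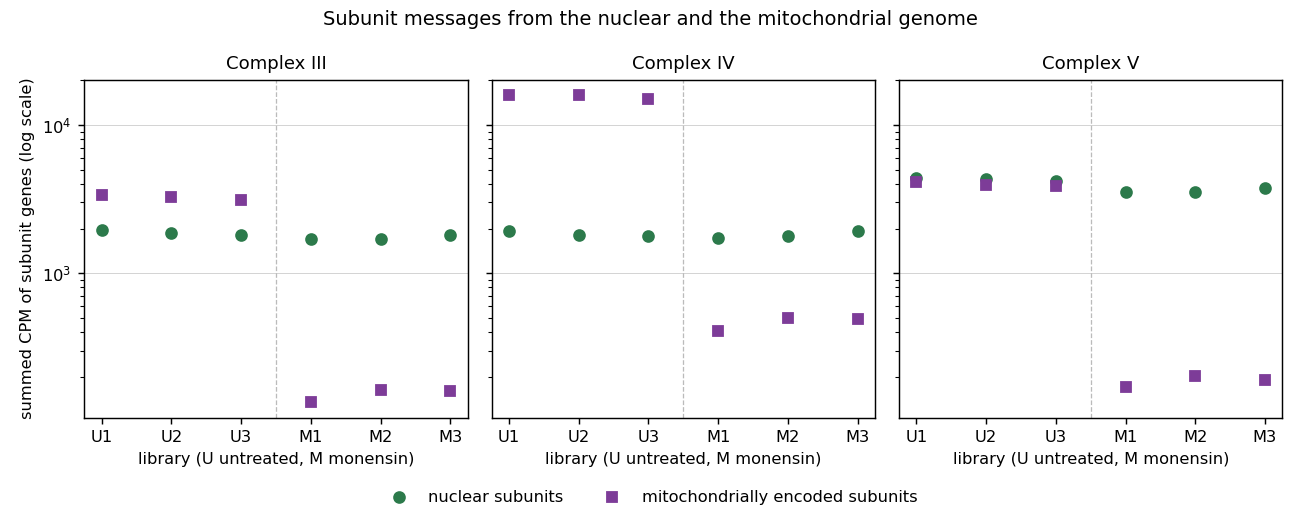
Summed CPM (vertical axis, log scale) of nuclear subunit genes (green circles) and of mitochondrially encoded subunit genes (purple squares) of complexes III, IV and V in untreated libraries U1 to U3 and monensin libraries M1 to M3. The purple squares drop from 15593 to 463.8 CPM on average in complex IV, while the green circles stay between 1729 and 1929 CPM.

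Genes that act on the same complexes but carry other names also moved in both directions. Of 31 tested assembly and biogenesis factors outside the naming rule, 19 fell, 6 rose and 6 were not called, with a median log2 fold change of -0.28. That is 61.3% lowered and 19.4% raised, against 33.7% and 34.1% of all tested genes. TIMM21, which helps nuclear subunits reach the complex IV assembly line, was at 51.0 and 25.9 CPM without and with monensin (log2 fold change -0.98, SE 0.06). LRPPRC and SLIRP, partners that bind and stabilise mitochondrial messenger RNA, fell by 0.48 and 0.55, ATPAF1, a chaperone of the ATP synthase head, by 0.63, and the copper factor SCO1 by 0.66. SURF1, a complex IV assembly factor, rose by 0.74 (SE 0.07, adjusted p = 7.99e-08), and HIGD2A, SMIM20 and OXA1L rose by 0.39, 0.49 and 0.31. OXA1L inserts proteins into the inner membrane. SCO2 and PET100 were the other 2 that rose, and both lost their call with DESeq2 (adjusted p = 0.0766 and 0.165) and after GC and length correction (adjusted p = 0.0584 and 0.905).

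Among regulators of respiratory gene transcription, 7 of 9 tested fell (77.8%, against 33.7% of all tested genes) and ESRRA rose. PPARGC1A, also on the list, had too few counts to test (2, 0 and 0 untreated, 12, 10 and 7 with monensin). It was tested in the fits with no filter, without untreated library 2 and without monensin library 3. In each of these fits 2 regulators rose. GABPA, the DNA-binding part of GABP, went from 36.8 to 23.2 CPM (log2 fold change -0.67, SE 0.07), and GABPA and ATP5PF overlap on opposite strands. YY1 fell by 0.30, SP1 by 0.36 and CREB1 by 0.34, while NRF1 was not called (log2 fold change -0.06, adjusted p = 0.418). ESRRA, a nuclear receptor, rose by 0.27. After GC and length correction 5 of these regulators fell and none rose, with ESRRA (adjusted p = 0.792) and CREB1 (adjusted p = 0.0692) among those no longer called. Complex I is the entry for electrons from NADH. Of 47 tested genes with symbols starting with NDUF, taken as its nuclear genes by name alone, 28 fell and 5 rose. That is 59.6% lowered and 10.6% raised, against 33.7% and 34.1% of all tested genes. Their median log2 fold change was -0.18, next to -0.15 for complexes II to V. NDUFA4 (-0.33) was counted here and also among the assembly and biogenesis factors above. Under total counts 21 of the NDUF genes fell and 9 rose, and after GC and length correction 32 fell and 5 rose.

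Of the tested genes of complexes II to V, 18 had a protein-coding neighbour on the other strand whose start site lay within 1000 bases. Positions came from GENCODE 29, and 17 of these neighbours were tested. Neighbours that do not code for protein were not searched. Both genes were called in 11 pairs, of which 8 moved in the same direction (7 both lowered, 1 both raised) and 3 in opposite directions. Over all tested genes 67.8% were called in either direction, and how often other neighbouring pairs move together was not tested. Start sites were taken in either order, so that some pairs overlap, such as ATP5PB and WDR77 (10.3% of the exonic bases of ATP5PB). COA5 rose together with UNC50 (0.30 and 0.35), and SDHD fell together with TIMM8B (-0.27 and -0.47). COX4I1 rose by 0.16 while its neighbour EMC8 had a log2 fold change of -0.36, UQCR10 fell while ZMAT5 rose (0.25), and ATP5F1C fell while KIN rose (0.28). SDHA fell by 0.83 and its neighbour CCDC127 by 0.25.

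Calls on single genes differed in how far they held across 14 alternative fits. Of the called genes, 6 of the 7 raised and 26 of the 34 lowered kept their direction and their call in all of them. Of the 26 genes not called, 3 stayed uncalled in every fit (UQCC1, COX6A1 and ATP5PO), and each of the 3 took both signs. The exception among the raised genes was SDHAF1. The raised genes COX7A2L, COX19, SDHAF4, COA5, ATP5MC2 and COX4I1 and, among the lowered, SDHA, CYCS, ATP5MC1, ATP5MC3, ATP5PF and ATP5F1A kept their direction and call throughout. The fitted value moved by over 1.5 times in some fit for 21 of the called genes. After GC and length correction the log2 fold change of ATP5MC3 was -0.35, of COX5B -0.37, of ATP5F1D -0.49, of UQCRC1 -0.40, of UQCR11 -0.42, of ATP5MF -0.55, of ATP5PB -0.14 and of COA5 0.47. Under total counts that of COX4I1 was 0.25, of COX5A -0.13, of ATP5F1B -0.17 and of ATP5MD -0.16. Without monensin library 3 that of ATP5F1D was -0.33.

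**Figure D4:**
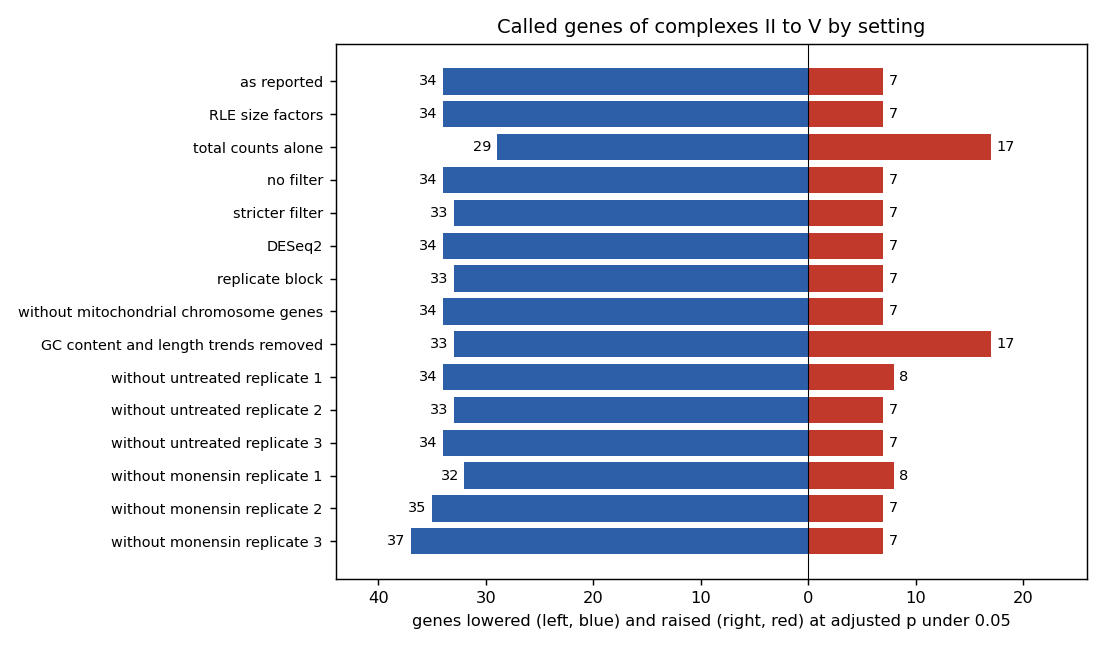
Number of the tested genes lowered (blue bars, to the left) and raised (red bars, to the right) at an adjusted p under 0.05, for the reported fit and each alternative. The lowered count stays between 29 and 37, and the raised count is 17 instead of 7 under total counts and after GC and length correction.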

How the data were processed

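The authors deposited raw counts of reads per gene for each of the 6 libraries (3 untreated, 3 monensin), without normalization, and a table of log2 fold changes for genes they list as regulated. Per the labels' protocols, RNA was extracted with Trizol, prepared with a directional kit and sequenced as single reads. The submitters' processing notes name build GRCh38 and, without their roles, HISAT2 2.1.0, Trimmomatic 038, bcl2fastq, DESeq2 1.22.2 and HTSeq 0.11.1. The sources used here do not give the annotation release, the strand setting or how RNA was selected.

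The test was edgeR's (4.0.16, under R 4.3.3): its filter on low counts by group, TMM normalization, the quasi-likelihood F test with treatment as the only term and Benjamini-Hochberg adjustment over 16542 genes. Lines for reads assigned to no gene stayed out of library sizes. CPM were computed on TMM-adjusted library sizes. Standard errors come from the coefficient and its F statistic. The script was tested on simulated data. Positions, lengths and GC content come from GENCODE 29, which held 99.79% of gene identifiers. No pair of libraries was identical (chi-square per degree of freedom from 1.93 to 5.09).

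The genes, the role groups and the lists of other factors were chosen with earlier results of these data known. Genes named with full values were, per complex, the 3 called subunits with the largest absolute change and an average log2 CPM of at least 2, subunits that moved against their complex, the 6 most changed assembly factors, whole isoform groups, CYCS and ATP5IF1. Other genes are named with their log2 fold change to account for every member, and SDHB, ATP5F1A, the shares of c-ring and COX7A2 reads, and the neighbouring genes were chosen after values were seen. Alternatives were RLE size factors, total counts, testing without a filter or with a stricter one (at least 1 CPM in 3 libraries and 50 counts), DESeq2 1.42.0, a replicate block, an adjusted p under 0.01, no mitochondrial genes, a GC and length correction (smooth trends of the log counts taken out through offsets), and leaving out each library. Counting limits cover counting error only, since PCR copies of a molecule were not told apart. A marker of another cell type is not reported here.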

Additional observations from a re-analysis of the deposited data

How the results depend on the processing

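The numbers of lowered genes (29 to 37) and of genes called over the whole table kept within 1.5 times the reported ones under every alternative. The number raised was 7 as reported and 17 both under total counts and after GC and length correction, and 7 or 8 in every other fit. Under total counts the median over the 67 genes was -0.067 instead of -0.15, while the median of all tested genes moved from 0.02 to 0.11. Leaving out 1 library gave 7 to 8 raised, 32 to 37 lowered and a median from -0.14 to -0.19. At an adjusted p under 0.01, 7 were raised and 32 lowered. Among genes called in the reported fit or after the correction, COX7C (log2 fold change 0.11), ATP5MG (0.21) and SDHAF1 (-0.011) turned direction after GC and length correction, and the cause was not tested. Of the genes called in neither of these 2 fits, ATP5S (0.15) is given as an example that turned too. The replicate block gave 7 raised and 33 lowered, and of the genes called it changed the call of ATP5F1C alone (adjusted p = 0.0626). Replicate numbers were not taken to pair the samples. Deviations of same-numbered libraries correlated at -0.152, 0.150 and 0.0186, and those of differently numbered ones at -0.228 to 0.202. With 3 libraries per group these values cannot settle whether samples were paired. The lowest count behind a tested gene was 73 (COX16), and each group holds 3 libraries.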
